A study of Homo sapiens with 12 samples.

Results

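The genes described here are the retinoid X receptors RXRA and RXRB and the nuclear receptors that bind DNA as their partners: the retinoic acid receptors RARA and RARG, the peroxisome proliferator-activated receptors PPARA, PPARD and PPARG, the liver X receptor NR1H2 and the vitamin D receptor VDR. They were chosen by name because honokiol, a lignan from magnolia bark, is known as an RXR ligand, with earlier results of these data known, and the rule itself uses no measured value. All 9 were found in the deposited table, which lists 36866 genes. Poly(A) RNA was sequenced from THP-1 and U-937 cells, established human monocytic lines that the labels class as acute myeloid leukemia with a complex karyotype. Each line received honokiol or DMSO, the solvent, for 24 h, with 3 libraries in each of the 4 groups and 12 in all. The labels list honokiol at 20 μM and 35 μM and DMSO at 0.1% without saying which line received which dose, so line and dose cannot be told apart in any comparison of the responses. Each line is a single culture lineage, and the labels do not say whether the libraries of a group came from separate cultures. The study's general statement that experiments were repeated does not name these libraries, so p-values measure the spread between these libraries, which may be technical.

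RXR proteins are ligand-activated transcription factors that bind DNA in pairs, most often with another nuclear receptor. The partner reads its own ligand, which is retinoic acid for the RARs, fatty acids and their derivatives for the PPARs, oxysterols for the liver X receptors and active vitamin D for VDR. Some pairs, among them PPAR-RXR and LXR-RXR, can be switched on from the RXR side alone, whereas RAR-RXR and VDR-RXR mostly follow the partner. In monocytes and macrophages these pairs control lipid uptake and efflux, fatty acid oxidation and differentiation.

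The authors gave each gene an FPKM value (fragments scaled to transcript length and to the mapped fragments of the library, a level per length) and an estimated count. Library sums of the counts ran from 57406966 to 75065752. Mitochondrially encoded genes took 13.7% of them in DMSO library 1 of THP-1 and 12.6% in DMSO library 1 of U-937, while the remaining 10 libraries held 5.61% to 7.55%. Results that rest on these libraries are therefore given with and without them. FPKM summed to 342967 and 325465 in these libraries and to between 265247 and 289464 in the remaining 10. TPM is FPKM scaled to the same sum in every library, and ranges given here are of FPKM unless TPM is named. Of 9 myeloid markers, 7 (among them SPI1, CD33, LYZ and CSF1R) reached an FPKM of 0.5 in all 12 libraries, while MPO stayed between 0.060 and 0.17 in U-937. Of 8 markers of other lineages 5 were listed. ALB, CD3E and EPCAM were under 0.5 in every library, and the 5 together summed to between 1.13 and 2.44 FPKM.

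PPARD, the widely expressed PPAR, had the highest mean FPKM of the 9 receptors in all 4 groups. With DMSO it was at 22.8, 19.9 and 26.4 FPKM in the 3 THP-1 libraries and at 63.2, 39.6 and 32.5 in the 3 U-937 libraries. In THP-1 its range overlapped those of RXRA and RXRB, and in U-937 it lay above all other receptors. Both RXR genes and RARA came next, with group means between 11.0 and 21.2 FPKM. At these levels they were above 90.0% to 95.4% of all listed genes. Below them the lines had different orders. In DMSO-treated THP-1 the mean FPKM was 7.26 for PPARG, 4.79 for VDR, 3.39 for NR1H2, 1.23 for PPARA and 0.633 for RARG, and of these neighbours only PPARA and RARG overlapped. In DMSO-treated U-937 it was 8.89 for NR1H2, 8.60 for VDR, 3.50 for RARG, 2.41 for PPARG and 0.750 for PPARA, where NR1H2 overlapped VDR and RARG overlapped PPARG. With honokiol the order of means changed for RXRA, which came after RXRB and RARA in both lines, and the lower 5 receptors kept theirs. With honokiol RARA overlapped RXRA in THP-1 and not in U-937.

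**Figure D1:**
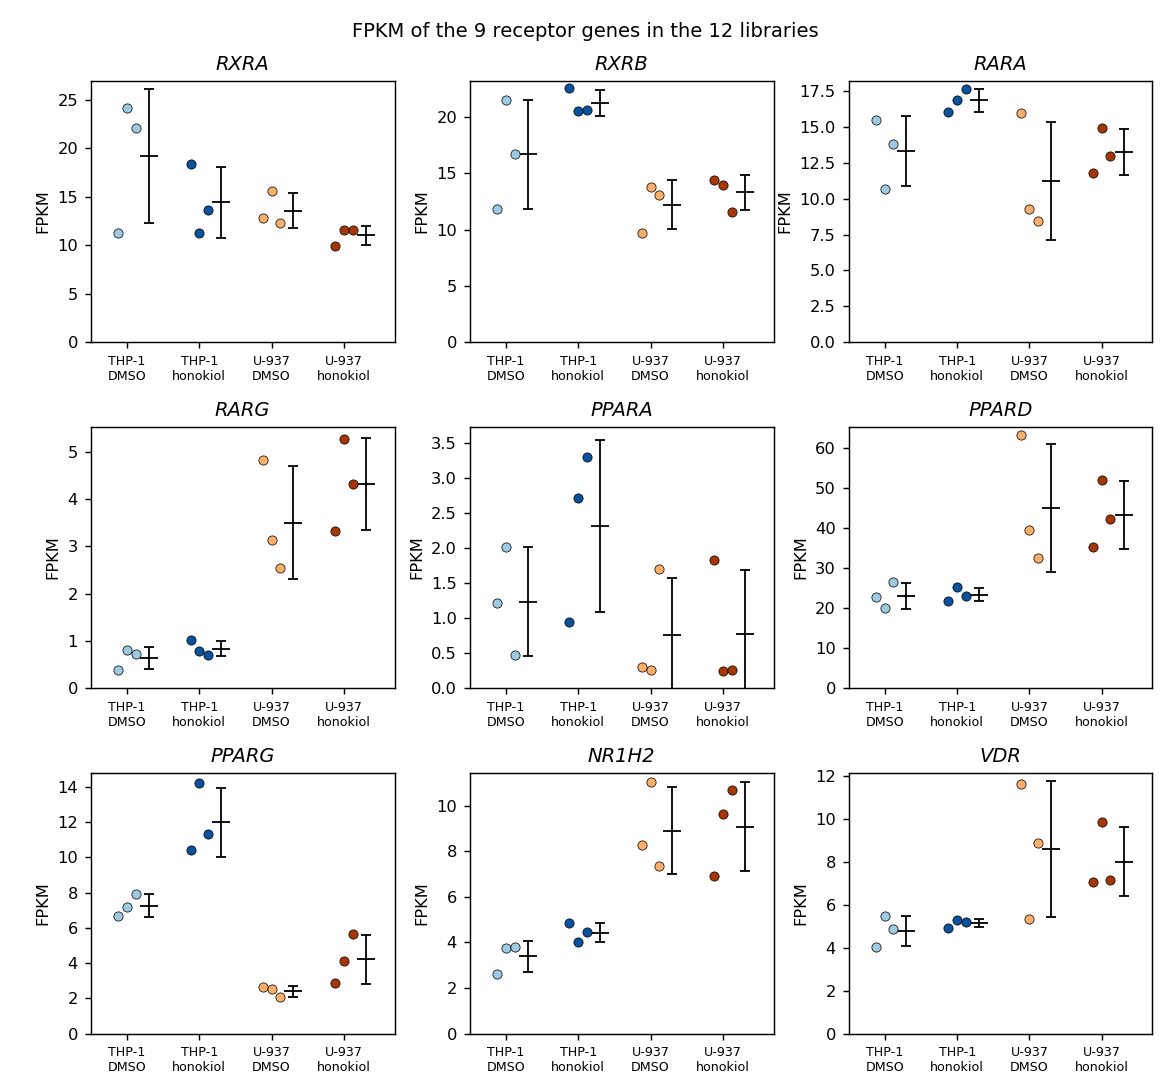
FPKM (y axis, from 0) of each receptor gene in the 4 groups. Coloured points are the 3 libraries of a group, the horizontal dash is their mean and the bar 1 SD, drawn only down to 0. PPARG in the honokiol libraries lies above the DMSO libraries in both lines, from 10.4 in THP-1 and 2.87 in U-937 upwards, while PPARA in U-937 has 4 libraries at 0.240 to 0.300 and the other 2 at 1.70 and 1.83.

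The receptor repertoires of the lines were first compared without honokiol, in the DMSO libraries. U-937 had more RARG, NR1H2, PPARD and VDR, and THP-1 had more PPARG and RXRB. Of the 9 genes, 6 passed edgeR's quasi-likelihood test with a Benjamini-Hochberg adjusted p under 0.05, 4 higher and 2 lower in U-937, where 52.9% of the 16283 genes tested passed (24.4% higher and 28.5% lower). Libraries of the lines did not overlap for 3 receptors that were higher and 1 that was lower in U-937, and for 56.7% of all genes (27.7% higher and 29.0% lower). The share of receptors that differed was thus near that of all genes. Of the 9 myeloid markers 8 also passed in this comparison, 2 higher and 6 lower in U-937, and their part in the receptor levels was not tested.

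RARG, a retinoic acid receptor linked to stem cell self-renewal, was at 0.380, 0.810 and 0.710 FPKM in DMSO-treated THP-1 and at 4.83, 3.14 and 2.54 in DMSO-treated U-937. All U-937 libraries were above all THP-1 libraries. The level was 5.39-fold higher in U-937 (log2 fold change 2.43, SE 0.33, adjusted p = 6.51e-05 by edgeR's quasi-likelihood test), and without both DMSO libraries numbered 1 the log2 fold change was 1.85 (adjusted p = 0.000465). NR1H2, the liver X receptor LXRβ that binds oxysterols, was at 2.60, 3.77 and 3.81 FPKM in THP-1 and at 8.29, 11.0 and 7.36 in U-937. Again no library of one line lay within the range of the other, and NR1H2 was 2.55-fold higher in U-937 (log2 fold change 1.35, SE 0.21, adjusted p = 0.000166 by edgeR). PPARD, with the values given above, did not overlap either and was 1.92-fold higher in U-937 (log2 fold change 0.94, SE 0.24, adjusted p = 0.00637 by edgeR). DMSO library 1 of U-937 held its highest value, and without that library the log2 fold change was 0.57 (adjusted p = 0.0230 by edgeR). VDR, the receptor of active vitamin D, was at 4.04, 5.46 and 4.86 FPKM in THP-1 and at 11.6, 5.32 and 8.86 in U-937, so library 2 of U-937 lay within the THP-1 range. Its log2 fold change was 0.81 with all libraries (SE 0.25, adjusted p = 0.0153 by edgeR), 0.48 without DMSO library 1 of U-937 (adjusted p = 0.0778) and 0.42 without both libraries numbered 1 (adjusted p = 0.160).

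PPARG, which directs lipid storage and is induced as monocytes become macrophages, was higher in THP-1. It was at 6.67, 7.18 and 7.94 FPKM in DMSO-treated THP-1 and at 2.64, 2.51 and 2.07 in DMSO-treated U-937. The lines did not overlap, and PPARG was 3.09-fold lower in U-937 (log2 fold change -1.63, SE 0.23, adjusted p = 9.29e-05 by edgeR's quasi-likelihood test). RXRB, a broadly expressed RXR, was at 11.8, 21.5 and 16.7 FPKM in THP-1 and at 9.71, 13.8 and 13.1 in U-937. These ranges overlapped. Its log2 fold change of -0.49 (SE 0.18, adjusted p = 0.0357 by edgeR) did not pass with no filter on low values (adjusted p = 0.0781), by limma-trend on log2(FPKM + 0.5) (0.100), in the 6 DMSO libraries alone (0.0908), or with DMSO library 2 or 3 of THP-1 or 1 or 3 of U-937 left out (0.0563 to 0.181). RXRA, the RXR best studied in myeloid cells, was at 11.3, 24.2 and 22.1 FPKM in THP-1 and at 12.8, 15.6 and 12.3 in U-937. DMSO library 1 of THP-1 was the lowest of the 6. With it RXRA did not pass (log2 fold change -0.53, SE 0.24, adjusted p = 0.0828 by edgeR), and without it the log2 fold change was -0.77 (adjusted p = 0.00649). RARA was at 15.5, 10.7 and 13.8 FPKM in THP-1 and at 16.0, 9.31 and 8.44 in U-937, and DMSO library 1 of U-937 was the highest of the 6. Its log2 fold change was -0.28 (SE 0.25, adjusted p = 0.364 by edgeR) with this library and -0.67 (adjusted p = 0.0116) without it. PPARA, at 1.21, 2.02 and 0.470 FPKM in THP-1 and 0.300, 0.250 and 1.70 in U-937, did not pass (log2 fold change -0.80, SE 0.90, adjusted p = 0.484 by edgeR).

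Honokiol was then compared with DMSO within each line, which asks whether the receptor genes respond to it. None of the 9 passed edgeR's quasi-likelihood test in either line. In THP-1 all 9 were tested and 0 passed, against 6 of all 14600 genes tested (0.0411%). In U-937 8 were tested and 0 passed, against 13 of all 13726 genes (0.0947%), and PPARA, with 2 of 6 libraries at 0.5 FPKM or more, was not tested. At an unadjusted p under 0.05 there was 1 receptor in THP-1, PPARG, where 13.1% of all genes were under it, and 2 in U-937, PPARG and RXRA, where 16.7% were. DESeq2 passed 1 receptor in THP-1, PPARG, and 0 in U-937, and limma-trend on log2(FPKM + 0.5) passed 0 in both. Over all genes DESeq2 passed 500 in THP-1 and 790 in U-937, and limma-trend 0 and 18. In THP-1 7 of 9 log2 fold changes were above 0 (49.9% of all genes), with a median of 0.30, and 3 receptors were higher without overlap (20.6% of all genes did not overlap, 13.0% higher and 7.62% lower). In U-937 4 of 8 were above 0 (52.0% of all genes), with a median of -0.01, and 1 receptor was higher and 1 lower without overlap (24.2% of all genes, 16.7% higher and 7.50% lower). Over all genes tested the median was -0.0011 for THP-1 and 0.02 for U-937. As these are bulk cultures, fewer cells of a type and less RNA per cell cannot be told apart.

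**Figure D2:**
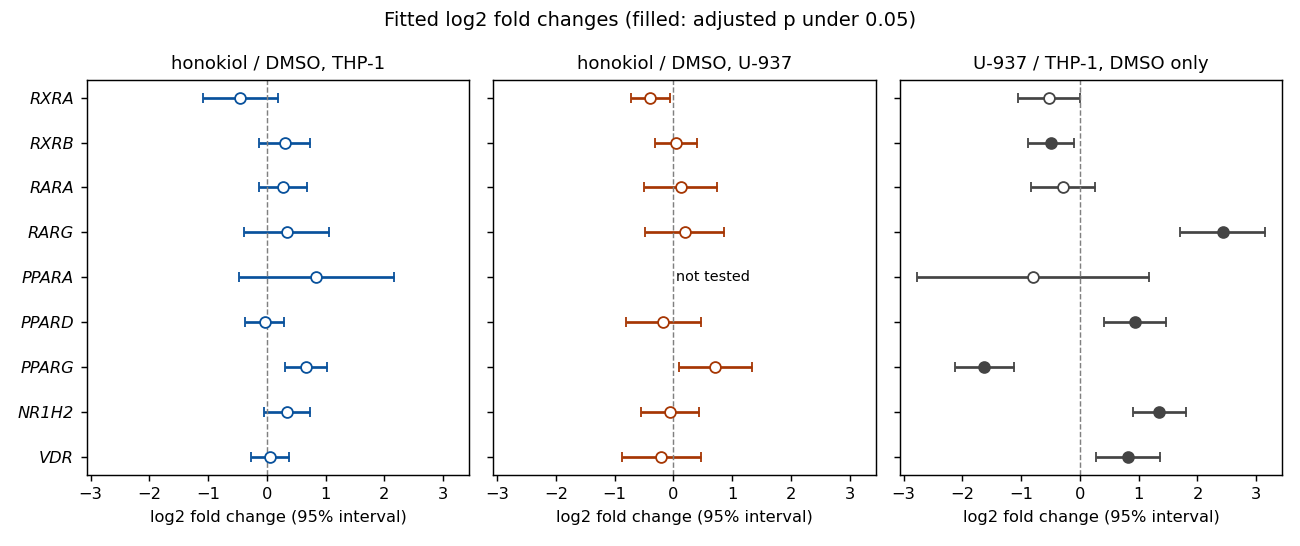
Log2 fold change (x axis, same scale in the 3 panels) of each receptor from edgeR's quasi-likelihood fit, with its 95% interval. The left and middle panels show honokiol against DMSO in each line, where no point is filled and the interval of PPARG lies above 0 in both, and the right panel shows DMSO-treated U-937 against DMSO-treated THP-1, where 6 points are filled for an adjusted p under 0.05.

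RXRA (ENSG00000186350, GRCh38 chromosome 9, 134317098 to 134440585, plus strand) had lower means with honokiol in both lines. In THP-1 it went from 11.3, 24.2 and 22.1 FPKM with DMSO to 18.3, 11.2 and 13.6 with honokiol. The groups overlapped through DMSO library 1, and the other 2 DMSO libraries were above all honokiol libraries. The log2 fold change was -0.45 (SE 0.28, 95% interval -1.09 to 0.19, adjusted p = 0.505 by edgeR's quasi-likelihood test), and -0.69 (adjusted p = 0.311) without DMSO library 1. In U-937 RXRA went from 12.8, 15.6 and 12.3 to 9.90, 11.5 and 11.6 FPKM. All honokiol libraries were below all DMSO libraries in FPKM. In TPM DMSO library 1 (39.2) fell within the honokiol range of 35.9 to 43.3. The log2 fold change was -0.39 (SE 0.14, 95% interval -0.72 to -0.06, unadjusted p = 0.0245, adjusted p = 0.235 by edgeR). Leaving out any 1 of the 6 libraries gave adjusted p-values between 0.199 and 0.459.

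RXRB (ENSG00000204231, chromosome 6, 33193588 to 33200665, minus strand) was at 22.6, 20.5 and 20.6 FPKM under honokiol in THP-1, and DMSO library 2 (21.5) lay within that range. Its log2 fold change was 0.30 (SE 0.19, 95% interval -0.13 to 0.74, adjusted p = 0.508 by edgeR's quasi-likelihood test), and 0.15 (adjusted p = 0.692) without DMSO library 1. In U-937 it was at 14.4, 14.0 and 11.5 FPKM with honokiol, which overlapped the DMSO range, with a log2 fold change of 0.04 (SE 0.16, adjusted p = 0.921 by edgeR). Its 5′ end overlaps SLC39A7 on the opposite strand in GENCODE 29, and whether the libraries keep strand is not given in the sources used here, so reads of that stretch cannot be told apart. Within a library, RXRA took 48.8%, 52.9% and 57.0% of the summed RXR FPKM in DMSO-treated THP-1 and 44.9%, 35.4% and 39.8% with honokiol, without overlap. In U-937 it took 56.8%, 53.1% and 48.5% with DMSO and 40.7%, 45.2% and 50.1% with honokiol, and DMSO library 3 fell within the honokiol range. These shares combine values tested gene by gene above and are given without a test.

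**Figure D3:**
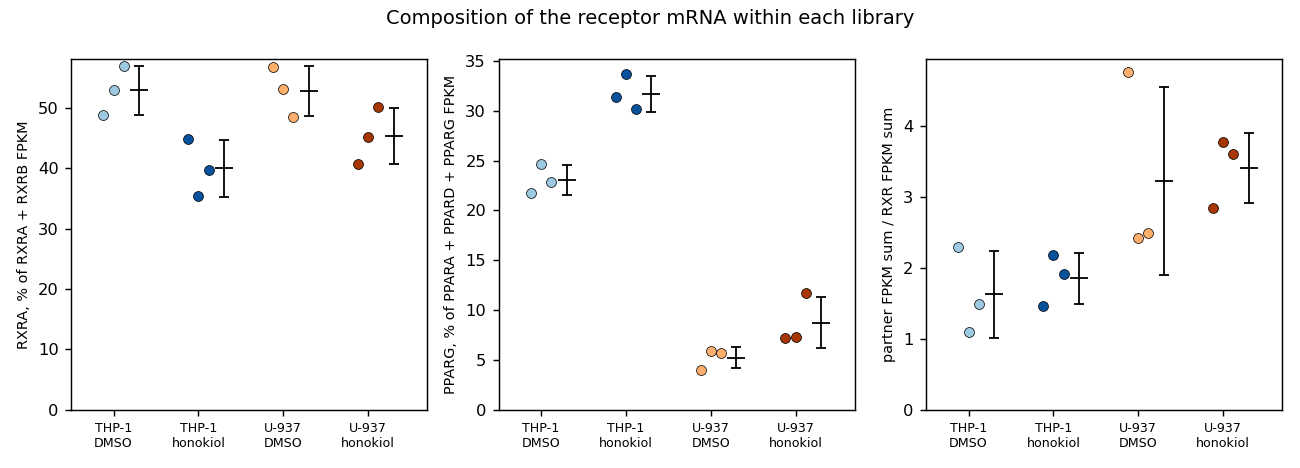
Composition of the receptor mRNA in each library (y axes from 0): RXRA as percent of RXRA plus RXRB FPKM, PPARG as percent of the 3 PPAR genes, and the FPKM sum of the 7 partners over that of both RXRs. Points are libraries, dashes means and bars 1 SD. The PPARG share does not overlap between treatments in either line, and the partner to RXR ratio overlaps between treatments in both.

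Summed over both genes, RXR was at 35.9 ± 11.6 FPKM (SD, n = 3) with DMSO and 35.6 ± 4.73 under honokiol in THP-1, and at 25.8 ± 3.47 and 24.3 ± 1.22 in U-937. The 7 partners summed to 53.7 ± 4.11 and 64.9 ± 4.54 FPKM in THP-1 and to 80.5 ± 23.1 and 82.9 ± 13.6 in U-937. Every group thus held more partner than RXR mRNA. The ratio was 2.30, 1.09 and 1.49 in DMSO-treated THP-1 and 4.76, 2.42 and 2.50 in DMSO-treated U-937, and it was highest in DMSO library 1 of each line. With honokiol it was 1.47, 2.18 and 1.92 in THP-1 and 2.84, 3.77 and 3.61 in U-937, within the DMSO range of each line. Without DMSO library 1, the U-937 honokiol libraries all lay above the other 2 DMSO libraries, and in THP-1 the groups still overlapped.

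RARA (ENSG00000131759, chromosome 17, 40309180 to 40357643, plus strand), the receptor through which retinoic acid drives granulocytic differentiation, was at 16.1, 16.9 and 17.7 FPKM under honokiol in THP-1. All 3 values were above the DMSO libraries, the highest of which was at 15.5. The log2 fold change was 0.28 (SE 0.18, 95% interval -0.14 to 0.69, adjusted p = 0.527 by edgeR's quasi-likelihood test), and 0.46 (adjusted p = 0.312) without DMSO library 1. In U-937 RARA was at 11.8, 14.9 and 13.0 FPKM with honokiol, inside the DMSO range of 8.44 to 16.0. Its log2 fold change there was 0.13 (SE 0.27, adjusted p = 0.851 by edgeR), and 0.51 (adjusted p = 0.191) without DMSO library 1. RARG (ENSG00000172819, chromosome 12, 53210567 to 53232980, minus strand) was at 1.01, 0.790 and 0.690 FPKM in THP-1 and at 3.33, 5.28 and 4.32 in U-937 with honokiol. Both ranges overlapped those of DMSO. The log2 fold changes were 0.34 (SE 0.31, adjusted p = 0.662) in THP-1 and 0.19 (SE 0.29, adjusted p = 0.786 by edgeR) in U-937, and without DMSO library 1 of the line they were 0.11 and 0.53.

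PPARG (ENSG00000132170, chromosome 3, 12287368 to 12434356, plus strand) had the smallest p of the receptors in THP-1. It went from 6.67, 7.18 and 7.94 FPKM with DMSO to 10.4, 14.2 and 11.3 with honokiol. All honokiol libraries were above all DMSO libraries. The level was 1.59 times that with DMSO (log2 fold change 0.67, SE 0.15, 95% interval 0.31 to 1.02, unadjusted p = 0.00249, adjusted p = 0.174 by edgeR's quasi-likelihood test), and the adjusted p was 0.0152 by DESeq2 and 0.182 by limma-trend on log2(FPKM + 0.5). In U-937 it went from 2.64, 2.51 and 2.07 to 2.87, 4.13 and 5.63 FPKM. Here too all honokiol libraries were above all DMSO libraries, with honokiol library 1 the closest to them. The log2 fold change was 0.71 (SE 0.27, 95% interval 0.09 to 1.33, unadjusted p = 0.0290, adjusted p = 0.246 by edgeR), and the 6 fits without 1 library gave 0.43 to 0.92, the lowest without honokiol library 3. The responses of the lines differed by 0.03 on the log2 scale (SE 0.32, 95% interval -0.66 to 0.73). Within the PPAR family, PPARG took 21.7%, 24.6% and 22.8% of the FPKM in DMSO-treated THP-1 and 31.4%, 33.7% and 30.1% with honokiol. In U-937 it took 3.99%, 5.92% and 5.70% with DMSO and 7.16%, 7.31% and 11.7% with honokiol, and PPARD held 87.8% to 95.6% of the family in every U-937 library.

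The promoters of PPARG and RARA are shown because, of the 18 RefSeq promoters of 8 receptors, only theirs held AGGTCA, the core letters that RXR and its partners read, searched on both strands in the 250 bases before each start. Of the 18 promoters 4 held it, beside 12.1% of the 35116 promoters of the RefSeq table (GRCh38.p14). The first PPARG promoter held 2 copies, 217 and 184 bases before the start, and 1.02% of all promoters hold 2 or more. The next PPARG starts lie 10 bases apart and their promoters share 1 copy, 14 and 24 bases before the start. RARA held 1 copy, 230 bases before its first start. The spaced repeats AGGTCANAGGTCA (DR1) and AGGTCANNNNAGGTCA (DR4), each of which contains the shorter motif, were in 0 of the 18 and in 0.0171% and 0.0142% of all promoters. The sequences below run 5′ to 3′ on the plus strand, the strand of both genes, with AGGTCA or its reverse complement in capitals. The gene-level values do not say which start was used. They lie at chr3:12287118-12287367 and chr3:12288810-12289059 for PPARG and at chr17:40308930-40309179 for RARA.
PPARG promoter 1: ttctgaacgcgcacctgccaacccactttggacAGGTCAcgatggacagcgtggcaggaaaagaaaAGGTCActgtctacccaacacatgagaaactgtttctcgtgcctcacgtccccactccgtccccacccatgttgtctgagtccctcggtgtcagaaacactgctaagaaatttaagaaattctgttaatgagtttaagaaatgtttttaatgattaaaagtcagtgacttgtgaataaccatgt
PPARG promoter 2: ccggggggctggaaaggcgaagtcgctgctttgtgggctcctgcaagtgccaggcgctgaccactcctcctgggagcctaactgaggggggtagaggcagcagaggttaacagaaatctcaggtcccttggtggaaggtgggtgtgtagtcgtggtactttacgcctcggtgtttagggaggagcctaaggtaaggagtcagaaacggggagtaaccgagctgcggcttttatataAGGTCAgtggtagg
RARA promoter 1: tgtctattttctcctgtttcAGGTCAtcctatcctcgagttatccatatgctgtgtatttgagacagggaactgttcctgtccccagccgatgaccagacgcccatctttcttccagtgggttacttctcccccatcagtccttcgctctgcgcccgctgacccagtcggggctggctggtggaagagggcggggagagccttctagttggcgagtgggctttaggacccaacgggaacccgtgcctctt

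PPARD (ENSG00000112033, chromosome 6, 35342558 to 35428191, plus strand) was at 21.9, 25.2 and 23.0 FPKM under honokiol in THP-1, all within the DMSO range of 19.9 to 26.4. Its log2 fold change was -0.04 (SE 0.15, 95% interval -0.37 to 0.30, adjusted p = 0.926 by edgeR's quasi-likelihood test). Among the U-937 libraries it was at 35.4, 52.1 and 42.3 FPKM, again within the DMSO range, with a log2 fold change of -0.17 (SE 0.28, adjusted p = 0.804 by edgeR) that was 0.19 (adjusted p = 0.648) without DMSO library 1. PPARA (ENSG00000186951, chromosome 22, 46150521 to 46243755, plus strand), which drives fatty acid oxidation in liver, varied more between libraries of each group than the other 8 receptors. It was at 1.21, 2.02 and 0.470 FPKM with DMSO and 0.940, 2.72 and 3.30 under honokiol in THP-1, with overlap and a log2 fold change of 0.84 (SE 0.57, adjusted p = 0.544 by edgeR). In U-937 it was at 0.300, 0.250 and 1.70 FPKM with DMSO and at 1.83, 0.240 and 0.250 with honokiol. DMSO library 3 and honokiol library 1 thus stood apart from the other 4. Their estimated counts did so too, at 271, 282 and 1736 with DMSO and 1744, 223 and 227 with honokiol. The coefficient of variation of PPARA was 109.7% and 118% in the U-937 groups, where the 90th percentile over genes past the FPKM limit was 45.6% and 41.1%.

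NR1H2 (ENSG00000131408, chromosome 19, 50329653 to 50383388, plus strand) was at 4.84, 4.0 and 4.45 FPKM under honokiol in THP-1, all above the DMSO values of 2.60, 3.77 and 3.81. The log2 fold change was 0.34 (SE 0.17, 95% interval -0.05 to 0.73, adjusted p = 0.432 by edgeR's quasi-likelihood test), and 0.22 (adjusted p = 0.534) without DMSO library 1, the lowest. In U-937 it was at 6.91, 9.64 and 10.7 FPKM, which overlapped the DMSO range (log2 fold change -0.06, SE 0.22, adjusted p = 0.920 by edgeR). The span of NR1H2 in GENCODE 29 overlaps NAPSB and NAPSA on the opposite strand. VDR (ENSG00000111424, chromosome 12, 47841537 to 47943048, minus strand) was at 4.94, 5.28 and 5.20 FPKM under honokiol in THP-1 and at 7.05, 9.85 and 7.14 in U-937. All 6 values were within the DMSO range of their line. The log2 fold changes were 0.05 (SE 0.14, 95% interval -0.27 to 0.37, adjusted p = 0.889) in THP-1 and -0.21 (SE 0.29, adjusted p = 0.766 by edgeR) in U-937, where the value was 0.11 (adjusted p = 0.857) without DMSO library 1.

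The difference between the honokiol responses of the lines was tested in a fit of all 12 libraries. Of the 9 receptors 0 passed edgeR's quasi-likelihood test, against 18 of 16283 genes (0.111%), and 0 had an unadjusted p under 0.05, against 9.37% of all genes. DESeq2 and limma-trend also passed 0. The differences (U-937 minus THP-1, log2 scale) ran from -0.87 for PPARA (SE 1.27) to 0.05 for RXRA (SE 0.34). NR1H2 had the smallest p, with a difference of -0.41 (SE 0.29, 95% interval -1.04 to 0.22, adjusted p = 0.708 by edgeR). The 95% intervals of all 9 reached beyond 0.5 in at least 1 direction, so a difference of that size in that direction was not excluded.

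By the distance between mean-centred log2(FPKM + 0.5) profiles over the 12 libraries, the receptors most alike were PPARD and VDR, at a root mean square distance of 0.27. The genes nearest to PPARD were DPYSL3 (0.14) and CSTB (0.14), and those nearest to VDR were COQ4 (0.14) and CCDC150 (0.15). PPARG was nearest to ITGAX (0.19), which codes for the myeloid integrin CD11c, and to GABARAPL1 (0.19). RPL3 (0.12) was among the 2 nearest to RXRB, and RXRA was nearest to TPI1P1 (0.17) and AHNAK2 (0.18). RARA was nearest to ZBTB7B (0.18) and DVL3 (0.18), RARG to IDUA (0.17) and HCG4B (0.18), and NR1H2 to REXO2 (0.12) and FAM50A (0.13). PPARA had no close match, with RBM33 (0.48) and NOTCH2NLA (0.51) the nearest of 16283 genes. These distances describe libraries that share lines and treatments.

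Other genes of the pathway were taken from lists by role. Among 10 further RXR partners, NR1H3, the liver X receptor LXRα of macrophages, had the smallest p in each line. It was at 2.02 ± 0.295 FPKM (SD, n = 3) with DMSO and 4.02 ± 0.597 under honokiol in THP-1, and at 0.697 ± 0.150 and 1.97 ± 0.636 in U-937. The groups did not overlap in either line, but NR1H3 did not pass edgeR's quasi-likelihood test (log2 fold change 0.93, SE 0.18, adjusted p = 0.136 in THP-1 and 1.37, SE 0.31, adjusted p = 0.115 in U-937). Of these partners 3 could be tested in THP-1 and 4 could in U-937, 0 passed, and DESeq2 passed 1 in each line, NR1H3. Among all genes DESeq2 passed 500 in THP-1 and 790 in U-937. In 1 fit of all 12 libraries edgeR passed NR1H3 in U-937, and within U-937 without DMSO library 1 it passed 0. Without honokiol NR1H3 was lower in U-937 (log2 fold change -1.54, SE 0.27, adjusted p = 0.000386 by edgeR), while NR1H2, the other LXR, was higher there. NR4A1, an orphan receptor that can pair with RXR, was higher in U-937 (log2 fold change 1.48, SE 0.28, adjusted p = 0.000873 by edgeR), and THRA and NR4A2 did not pass (adjusted p = 0.913 and 0.364). RXRG, RARB, THRB, NR1H4, NR1I2 and NR1I3 were not tested in either line.

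Of the coactivators and corepressors through which these receptors act, 0 passed edgeR's quasi-likelihood test with honokiol in either line, and DESeq2 passed 1, CARM1 in U-937. Of 9 coactivators 9 were tested in each line, with 1 (THP-1) and 2 (U-937) under an unadjusted p of 0.05 and medians of 0.04 and -0.15. Of all genes 13.1% and 16.7% were under that p, and DESeq2 passed 500 and 790. CARM1, an arginine methyltransferase, was at 30.8 ± 0.936 FPKM with DMSO and 20.0 ± 2.19 with honokiol in U-937, without overlap (log2 fold change -0.72, SE 0.13, adjusted p = 0.0776 by edgeR). EP300, a histone acetyltransferase, was at 14.4 ± 5.57 and 9.40 ± 1.16 FPKM in THP-1, with overlap (log2 fold change -0.69, SE 0.30, adjusted p = 0.380 by edgeR). PPARGC1B, which boosts mitochondrial gene expression, had log2 fold changes of 0.42 (SE 0.20, adjusted p = 0.409) in THP-1 and -0.47 (SE 0.15, adjusted p = 0.191) in U-937, and the difference did not pass (adjusted p = 0.312). Of 7 corepressors 7 were tested in THP-1 (2 under an unadjusted p of 0.05, median -0.07) and 6 in U-937 (1 under it, median -0.23). TBL1XR1, a subunit of the NCoR complex, had 0.29 (SE 0.12, adjusted p = 0.355) in THP-1 and 0.40 (SE 0.18, adjusted p = 0.315) in U-937. Its relative TBL1X had -0.53 (SE 0.16, adjusted p = 0.169) in U-937.

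Between the DMSO-treated lines 2 of 9 coactivators and 5 of 7 corepressors passed, where 52.9% of all genes did. CARM1 was higher in U-937 (log2 fold change 1.75, SE 0.18, adjusted p = 6.64e-06 by edgeR) and EP300 lower (-0.73, SE 0.28, adjusted p = 0.0442), and the other 7 coactivators did not pass. Of the 5 corepressors 1 was higher and 4 were lower in U-937. TBL1X was higher (1.29, SE 0.15, adjusted p = 1.49e-05 by edgeR), and TBL1XR1 (-1.26, SE 0.15, adjusted p = 2.70e-05) and NCOR1 (-0.48, SE 0.16, adjusted p = 0.0251) were lower. NRIP1, a corepressor bound by liganded receptors, had 4 to 8 counts per DMSO-treated U-937 library against 1155 to 1783 in THP-1. EP300 and NCOR1 did not pass without both DMSO libraries numbered 1.

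Genes that make, carry or break down the ligands held 0 that passed edgeR's quasi-likelihood test with honokiol. As background for the counts below, an unadjusted p under 0.05 was found for 13.1% of all THP-1 genes and 16.7% of all U-937 genes. DESeq2 passed 500 of all genes for THP-1 and 790 for U-937. In the retinoid and fatty acid group 11 of 17 were tested in THP-1, with 4 under an unadjusted p of 0.05 and 3 passed by DESeq2, and 8 in U-937, with 3 and 0. DHRS3, which returns retinal to retinol, was at 0.680 ± 0.459 FPKM with DMSO and 2.72 ± 0.608 under honokiol in THP-1 (log2 fold change 1.96, SE 0.45, adjusted p = 0.174 by edgeR). CRABP2, which carries retinoic acid to RAR, had 2.23 (SE 0.77, adjusted p = 0.305) with overlapping groups, and the retinol dehydrogenase DHRS9 had -0.55 (SE 0.16, adjusted p = 0.266). In U-937 the retinal reductase RDH11 had 0.53 (SE 0.16, adjusted p = 0.176). FABP5, which carries fatty acids to PPARD, was at 104 ± 16.0 FPKM with DMSO and 189.7 ± 62.5 with honokiol in U-937 (log2 fold change 0.77, SE 0.26, adjusted p = 0.212 by edgeR). In the vitamin D and oxysterol group 3 of 6 were tested in each line, with 1 under an unadjusted p of 0.05 and 1 passed by DESeq2 in each. CYP27A1, the sterol 27-hydroxylase, was at 3.0 ± 0.661 FPKM with DMSO and 9.35 ± 4.03 under honokiol in THP-1 (log2 fold change 1.58, SE 0.35, adjusted p = 0.168 by edgeR). CYP2R1, a vitamin D 25-hydroxylase, was at 2.36 ± 0.195 FPKM with DMSO and 4.59 ± 0.505 with honokiol in U-937 (log2 fold change 0.87, SE 0.17, adjusted p = 0.0833 by edgeR).

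Without honokiol 7 of 11 retinoid and fatty acid genes and 4 of 4 vitamin D and oxysterol genes passed edgeR's quasi-likelihood test between the lines, where 52.9% of all genes did. CRABP1, a retinoic acid carrier, was at 36.4 ± 5.63 FPKM in THP-1 and had 0 to 2 counts per library in U-937. DHRS9 was at 12.1 ± 0.771 FPKM in THP-1 and 0.283 ± 0.105 in U-937 (log2 fold change -5.43, SE 0.37, adjusted p = 3.77e-07 by edgeR), and FABP3 at 8.30 ± 3.69 FPKM in THP-1 and 0.657 ± 0.233 in U-937 (-3.68, SE 0.44, adjusted p = 2.55e-05). FABP5 was higher in U-937 (1.93, SE 0.32, adjusted p = 0.000270 by edgeR), as was PPARD, the receptor it serves. CYP27A1 was lower in U-937 (-5.25, SE 0.80, adjusted p = 0.000159 by edgeR). CYP2R1 (1.25, SE 0.27, adjusted p = 0.00180), CYP46A1 (1.77, SE 0.41, adjusted p = 0.00327) and CYP27B1 (0.83, SE 0.28, adjusted p = 0.0243) were higher, and CYP27B1 did not pass without both DMSO libraries numbered 1.

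**Figure D4:**
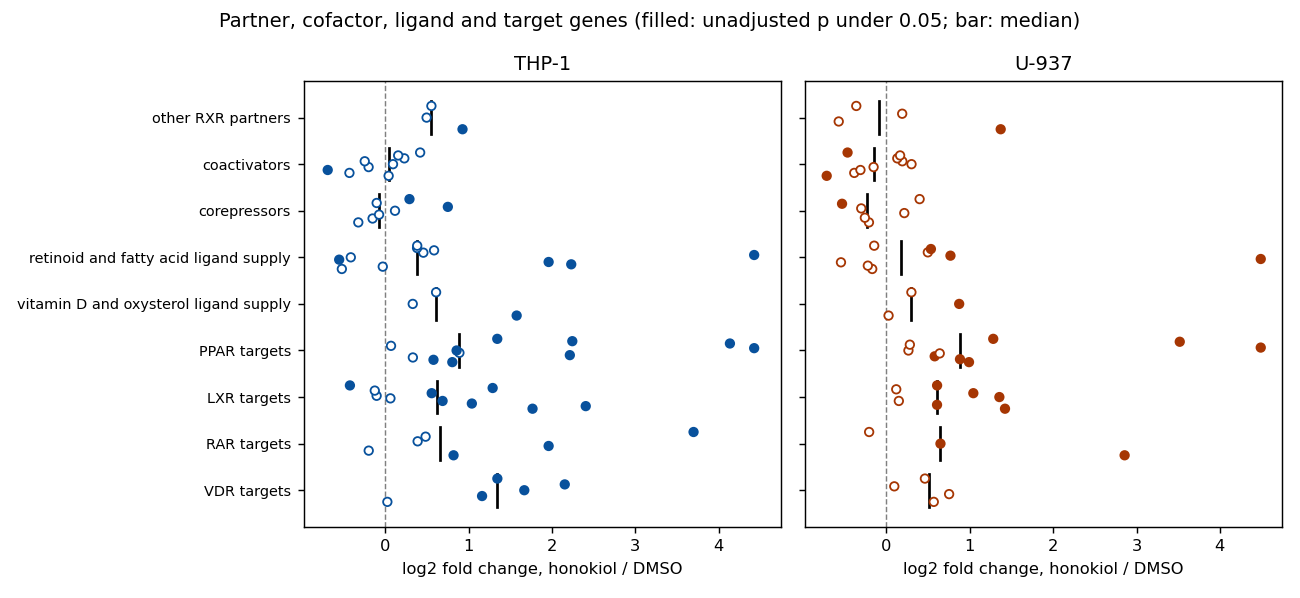
Log2 fold change with honokiol (x axis) of the tested genes of 9 lists in THP-1 and U-937. Each point is a gene, filled for an unadjusted p under 0.05 by edgeR's quasi-likelihood test, and the bar is the median of the list. All 11 and all 9 tested PPAR targets lie above 0, with medians of 0.89 and 0.88, and FABP4 stands in both the PPAR target and the ligand list.

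Of 12 PPAR targets, 11 could be tested in THP-1 and 9 could in U-937, and all had log2 fold changes above 0, with medians of 0.89 and 0.88, against -0.0011 and 0.02 over all genes tested. PDK4 reached the FPKM limit in THP-1 only in honokiol libraries, so it could only be higher, and the median of the other 10 was 0.87. Of the tested targets, 0 passed edgeR's quasi-likelihood test in either line, 8 and 6 had an unadjusted p under 0.05, and DESeq2 passed 7 and 4. PDK4 is among the 8 and the 7 of THP-1. Over all genes tested 13.1% and 16.7% were under that p, and DESeq2 passed 500 and 790. Log2 fold changes were above 0 for 49.9% and 52.0% of all genes. PLIN2, a lipid droplet coat protein, was at 25.3 ± 9.56 FPKM with DMSO and 125 ± 29 under honokiol in THP-1 (log2 fold change 2.25, SE 0.30, adjusted p = 0.0607 by edgeR) and at 15.3 ± 12 FPKM with DMSO and 185 ± 128 with honokiol in U-937 (3.52, SE 0.68, adjusted p = 0.0842). In THP-1 PLIN2 passed without honokiol library 1 (adjusted p = 0.0452). There it was followed by PDK4, which spares glucose (4.14, SE 0.59, adjusted p = 0.0684), the carnitine carrier SLC25A20 (1.34, SE 0.20, adjusted p = 0.0720) and CPT1A, which lets fatty acids into mitochondria (0.86, SE 0.17, adjusted p = 0.153). In U-937 the β-oxidation enzyme ACAA2 had the smallest p (0.99, SE 0.15, adjusted p = 0.0643 by edgeR), and ACADVL, which opens the mitochondrial pathway, came after PLIN2 (0.88, SE 0.19, adjusted p = 0.0989). FABP4, a fatty acid carrier of macrophages and fat cells, was at 0.830 ± 0.803 FPKM with DMSO and 18.8 ± 15.1 under honokiol in THP-1 and at 0.827 ± 1.28 FPKM with DMSO and 19.7 ± 24.4 with honokiol in U-937. Its SDs were near or above its means, and it did not pass (4.43, SE 1.13, adjusted p = 0.214 and 4.49, SE 1.5, adjusted p = 0.212 by edgeR). Leaving out 1 library moved its log2 fold change between 3.79 (without honokiol library 2) and 5.35 (without DMSO library 3) in THP-1 and between 2.65 (without honokiol library 3) and 7.56 (without DMSO library 2) in U-937. Without DMSO library 1 of the line 0 PPAR targets passed in either, whereas 1 fit of all 12 libraries, in which a gene could reach the limit through the other line, passed CPT1A in THP-1 and ACAA2 and PLIN2 in U-937.

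Between the DMSO-treated lines 6 of 11 PPAR targets passed edgeR's quasi-likelihood test, 3 higher and 3 lower in U-937. Of all genes 52.9% passed (24.4% higher and 28.5% lower), a share near that of these targets. CD36, a scavenger receptor, was higher (log2 fold change 3.23, SE 0.52, adjusted p = 0.000245 by edgeR), and ANGPTL4 (-2.77, SE 0.68, adjusted p = 0.00450) was lower. PDK4, also lower, had 0 counts in all 3 U-937 libraries and 24 to 118 in those of THP-1. It was under the FPKM limit in both DMSO groups (at most 0.36 in THP-1) and was tested only through honokiol libraries. The median over the 11 was -0.05.

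Of the 10 LXR targets 10 could be tested in THP-1 and 7 could in U-937, and 1 passed edgeR's quasi-likelihood test in each, both higher with honokiol. Over all genes tested 0.0411% passed in THP-1 and 0.0947% in U-937. In THP-1 it was the cholesterol exporter ABCG1 (log2 fold change 2.41, SE 0.21, adjusted p = 0.0433). It did not pass with no filter on low values (adjusted p = 0.0637), by limma-trend on log2(FPKM + 0.5) (0.0817), or without DMSO library 1 (0.0693), DMSO library 2 (0.0646), honokiol library 2 (0.145) or honokiol library 3 (0.173). In U-937 it was PLTP, the phospholipid transfer protein, which rose from 11.3 ± 1.27 to 30.9 ± 0.360 FPKM (1.35, SE 0.15, adjusted p = 0.0337 by edgeR). PLTP also passed by limma-trend (adjusted p = 0.0177) and without DMSO library 1 (0.0245), and did not without any 1 of the other 5 libraries (0.0744 to 0.154). Next in THP-1 were the cholesterol exporter ABCA1 (1.77, SE 0.26, adjusted p = 0.0714) and the apolipoprotein APOC1 (1.04, SE 0.29, adjusted p = 0.239). In U-937 they were the lipid synthesis genes SCD (1.04, SE 0.20, adjusted p = 0.0872), LPCAT3 (0.61, SE 0.14, adjusted p = 0.114) and SREBF1 (0.61, SE 0.14, adjusted p = 0.125). The median of the LXR targets was 0.62 in THP-1, where 7 of 10 were above 0, and 0.61 in U-937, where 7 of 7 were. Over all genes tested the medians were -0.0011 and 0.02, and 49.9% and 52.0% were above 0. Under an unadjusted p of 0.05 were 7 targets in THP-1, 1 of them lower, and 5 in U-937, against 13.1% and 16.7% of all genes. APOE reached the FPKM limit in U-937 only in honokiol libraries, so it could only be higher. The other 6 were also above 0, with a median of 0.61. The difference between the lines did not pass edgeR's test for ABCG1 (adjusted p = 0.603) or PLTP (0.312). DESeq2 passed it for SCD and SREBF1, and limma-trend on log2(FPKM + 0.5) for ABCG1. In DMSO-treated U-937 ABCG1 was at 0.02 to 0.04 FPKM, and it was not tested within that line. At such values the added 0.5 presses log2 changes towards 0, so limma-trend cannot decide this difference. In 1 fit of all 12 libraries ABCA1 and ABCG1 passed in THP-1, and ABCA1, APOE, PLTP and SCD in U-937, where ABCA1 had not reached the limit within the line.

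Between the DMSO-treated lines all 10 LXR targets passed edgeR's quasi-likelihood test, 3 higher and 7 lower in U-937. Of all genes 52.9% passed, 24.4% higher and 28.5% lower. APOE was at 40.5 ± 14.5 FPKM in THP-1 and 0.253 ± 0.0666 in U-937 (log2 fold change -7.32, SE 0.31, adjusted p = 1.65e-08 by edgeR). ABCA1 was at 3.77 ± 1.19 FPKM in THP-1 and 0.0400 ± 0.0100 in U-937 and PLTP at 63.5 ± 13.2 FPKM in THP-1 and 11.3 ± 1.27 in U-937. ABCG1 was at 0.690 ± 0.154 FPKM in THP-1 and 0.0267 ± 0.0115 in U-937. These 4 genes were lower in U-937, the line with more NR1H2 and less NR1H3, while 3 of the 10 targets were higher there. A link between receptor and target levels was not tested.

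Of the 10 RAR targets 6 could be tested in THP-1 and 3 could in U-937, 0 passed edgeR's quasi-likelihood test, 3 and 2 had an unadjusted p under 0.05, and DESeq2 passed 3 and 1. Over all genes tested 13.1% and 16.7% were under that p, and DESeq2 passed 500 and 790. In 1 fit of all 12 libraries edgeR passed TGM2 in both lines, although it had not reached the limit within U-937, and CD38 in U-937. Within each line without DMSO library 1 it passed 0. TGM2 in THP-1 and CD38 in U-937 were under the FPKM limit in all DMSO libraries and were tested only through their honokiol libraries, so they could only be higher. Both are among the genes counted above, and CD38 was the 1 gene that DESeq2 passed in U-937. DESeq2 passed the difference between the lines for CD38. TGM2, a transglutaminase, was at 0.260 ± 0.0866 FPKM with DMSO and 3.52 ± 1.80 under honokiol in THP-1 (log2 fold change 3.7, SE 0.45, adjusted p = 0.0607 by edgeR). CD38, an NAD-consuming surface enzyme, was at 8.11 ± 1.97 FPKM with DMSO and 15.0 ± 0.816 under honokiol in THP-1 (0.82, SE 0.21, adjusted p = 0.215 by edgeR) and at 0.300 ± 0.0964 FPKM with DMSO and 2.35 ± 0.936 with honokiol in U-937 (2.86, SE 0.40, adjusted p = 0.0598). The granulocytic factor CEBPE was at 19.3 ± 4.89 FPKM with DMSO and 32.3 ± 7.10 with honokiol in U-937 (0.65, SE 0.24, adjusted p = 0.243 by edgeR). CYP26A1, CYP26B1, RARB and STRA6 were not tested in either line. Without honokiol all 6 passed between the lines, where 52.9% of all genes did. CD38 (-4.80, SE 0.38, adjusted p = 1.01e-06 by edgeR) and DHRS3 (-2.06, SE 0.48, adjusted p = 0.00337) were among the 4 lower in U-937, while CEBPE (1.3, SE 0.24, adjusted p = 0.000598) was higher.

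Of the 6 VDR targets 5 were tested in THP-1, with a median of 1.35 and 4 under an unadjusted p of 0.05, and 4 in U-937, with a median of 0.51 and 0 under it. Of these 0 passed edgeR's quasi-likelihood test, and DESeq2 passed 4 in THP-1 and 0 in U-937. Over all genes 13.1% and 16.7% were under an unadjusted p of 0.05, and DESeq2 passed 500 and 790. In THP-1 the thrombin receptor THBD was at 34.8 ± 3.61 FPKM with DMSO and 91.8 ± 18.2 with honokiol (log2 fold change 1.35, SE 0.17, adjusted p = 0.0607 by edgeR). SEMA6B (2.15, SE 0.38, adjusted p = 0.123), the gluconeogenic enzyme FBP1 (1.67, SE 0.33, adjusted p = 0.144) and the lipopolysaccharide co-receptor CD14 (1.16, SE 0.32, adjusted p = 0.228) did not overlap between treatments. In U-937 THBD had 0.46 (SE 0.42, adjusted p = 0.625), the antimicrobial peptide gene CAMP 0.57 (SE 0.27, adjusted p = 0.340), CD14 0.75 (SE 0.72, adjusted p = 0.638) and SEMA6B 0.09 (SE 0.34, adjusted p = 0.920). The difference between the lines did not pass edgeR's test for THBD (adjusted p = 0.621), SEMA6B (0.304) or CD14 (0.947), and DESeq2 passed it for SEMA6B. Between the DMSO-treated lines SEMA6B was higher in U-937 (4.22, SE 0.45, adjusted p = 9.85e-06 by edgeR) and FBP1, THBD and CD14 lower, of which CD14 (-1.79, SE 0.63, adjusted p = 0.0309) did not pass without both DMSO libraries numbered 1. Of the 5 VDR targets tested between the DMSO-treated lines 4 passed, where 52.9% of all genes did. CYP24A1, the vitamin D 24-hydroxylase, was not tested in either line. CD14 is also a myeloid marker, and the 9 myeloid markers summed to 394 to 719.9 FPKM with DMSO and 349.5 to 500.2 under honokiol in THP-1, and to 449.6 to 762 and 373 to 449 in U-937. Their part in the target gene values was not tested.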

How the data were processed

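RNA of 12 THP-1 and U-937 libraries was analysed from 1 deposited table of the whole series. The authors gave it FPKM values and estimated counts per gene, which are whole numbers. The submitters' processing notes name Bowtie 0.12.2, HISAT2 2.0 and StringTie 1.3.0 with no role, and mm8, a mouse build, whereas the coordinates are human: 35762 of 36866 gene IDs were found in GENCODE 29 (GRCh38) and 22476 have the same coordinates there. Strandedness, counting and filters are not given in the sources used here. Every column of per-sample values was mapped to a sample by its name (0 were left unused).

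Genes that reached an FPKM of 0.5 in 3 or more libraries were tested on the counts with edgeR 4.0.16 (TMM, quasi-likelihood test, Benjamini-Hochberg adjustment over all genes tested, adjusted p under 0.05), within each line for honokiol and in 1 fit of all 12 libraries for differences between lines. Count sums of 57406966 to 75065752 set the depth, and replicates correlated at 0.987 to 0.993 (log2 CPM, across genes). The code was tested on simulated data. Alternatives were other size factors, filters, limma 3.58.1 (limma-trend) on log2(FPKM + 0.5) or log2(FPKM + 0.1), DESeq2 1.42.0, counts divided by 4, a replicate block, a fold criterion and each library left out. Named genes are all 9 receptors, the up to 4 genes of each list with the smallest p in each comparison, and the 2 nearest genes to each receptor. Some genes that this rule names are not reported here. The receptors and lists were chosen with earlier results of these data known. Deviations from group means were correlated between same-numbered libraries of DMSO and honokiol. Their r was -0.13, -0.20 and 0.14 in THP-1 and -0.14, -0.10 and -0.16 in U-937. These values show no steady pairing by number but cannot exclude it, as deviations from a mean of 3 libraries sum to 0. Higher r was found between libraries of different numbers. In U-937 DMSO libraries 1, 2 and 3 had 0.22, 0.25 and 0.29 with honokiol libraries 2, 3 and 1. In THP-1 DMSO libraries 1 and 2 had 0.18 and 0.27 with honokiol libraries 2 and 1. The remaining pairs of different numbers within a line had -0.145 to -0.028. Between the lines, same-numbered DMSO libraries had 0.19, 0.059 and 0.16, and DMSO libraries of different numbers -0.19 to 0.074. Same-numbered honokiol libraries of the lines had -0.024, -0.047 and 0.021. Pairing across different numbers and a shared batch were not tested. Promoters were RefSeq's (GRCh38.p14, 250 bases before each start), matched by symbol for 8 receptors. Python 3.11.15 and R 4.3.3 were used.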

Additional observations from a re-analysis of the deposited data

How the results depend on the processing

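With 3 libraries a group, DMSO library 1 of each line weighed on many values and small changes may have gone undetected. Of 383 receptor values under other settings, 357 kept their direction and their side of the threshold; RARG, PPARG and NR1H2 differed between the lines under every setting run, and PPARD did except under the fold criterion. The cause of the changes was not tested. In TPM RXRA overlapped between treatments in U-937, and VDR did not overlap between the DMSO-treated lines (20.1 against 19.4). Honokiol library 2 of U-937 then lay above the DMSO range for RARA (56.2 against 49.1), PPARD (196.1 against 194.1) and VDR (37.0 against 35.7). With DMSO the highest RARA was then in THP-1 library 3 (49.3).

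Genes passing for honokiol in THP-1 (6) were 0 with the replicate block, 0 with no filter, 1 with an FPKM limit of 1, 0 and 0 by limma-trend with pseudocounts of 0.5 and 0.1, 500 by DESeq2 (1 receptor), 37 in 1 fit of all 12 libraries and 12 in that fit without both DMSO libraries numbered 1, a setting chosen after seeing the data. In U-937 (13) they were 0 with the block, 790 by DESeq2, 207 in 1 fit and 155 without those libraries. For the difference between lines (18) they were 0 with the block, 0 with counts divided by 4, 2 and 1 by limma-trend, 244 by DESeq2, 0 among genes past the limit in both lines and 7 without those libraries. Between the DMSO-treated lines (8610) the block gave 8348, and an absolute log2 fold change over 1 left 5542, with 3 receptors. The replicate block changed no call of a receptor, and ended those of ABCG1 (adjusted p = 0.162, edgeR) and PLTP (0.167). Leaving out 1 library gave 0 to 48 (48 without THP-1 honokiol library 1), 0 to 7, 1 to 20 and 7867 to 8480.

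Signs turned by limma-trend (0.5, then 0.1) were PPARD in THP-1 (0.025 and 0.025), NR1H2 in U-937 (0.026 and 0.026), THRA between the DMSO-treated lines (0.040 and 0.044, and 0.075 with the block), and, with 0.5, the differences of RARG (0.041) and PPARG (-0.019). In 1 fit without both DMSO libraries numbered 1 they were PPARD (0.013) and VDR (-0.0050) in THP-1, RXRB (-0.076), PPARD (0.20) and VDR (0.12) in U-937, the differences of RARA (0.047), RARG (0.42), PPARD (0.18) and VDR (0.12), and THRA between the lines (0.63). Leaving out 1 library gave PPARD -0.15 to 0.039 and VDR -0.011 to 0.13 in THP-1. In U-937 it gave RXRB -0.078 to 0.13, RARA -0.078 to 0.51, RARG -0.027 to 0.53, PPARD -0.39 to 0.19, NR1H2 -0.21 to 0.11, VDR -0.47 to 0.11, THRA -0.98 to 0.028, CYP27B1 -0.14 to 0.19 and SEMA6B -0.21 to 0.36. For the difference it gave RXRA -0.14 to 0.29, RARA -0.35 to 0.23, RARG -0.36 to 0.19, PPARA -2.53 to 0.49, PPARD -0.35 to 0.23, PPARG -0.25 to 0.24 and VDR -0.52 to 0.064, and for THRA between the DMSO-treated lines -0.46 to 0.51.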
